A study of Homo sapiens with 18 samples.

Results

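The genes described here are 7 oncogenes whose promoters hold widely studied G-quadruplexes: MYC, BCL2, PDGFA, PDGFRB, MYB, SRC and RET. They were picked by symbol from 5 deposited tables of differential expression, which together list 16616 genes, and the rule used no measured value. Of the 7 genes, 6 had a row in all 5 tables, as had 10911 genes in all, and RET had no row for GemMIA-R3 cells at 6 h.

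RNA-seq was carried out on MIA PaCa-2, an established human pancreatic ductal adenocarcinoma line, and on GemMIA-R3, a derivative of it selected stepwise for growth in gemcitabine. Each of 6 groups had 3 libraries, 18 in all. GemMIA-R3 cells were treated for 6 h or 24 h with CM03, a naphthalene diimide that binds quadruplexes, at 400 nM. Their controls were kept over the same times, with vehicle (PBS) by the study's methods. Parental cells without CM03 were taken at 6 h and at 24 h. The word untreated here means without CM03. The comparisons ask how each line responds to CM03 and how untreated GemMIA-R3 cells differ from the parental line. GemMIA-R3 is a single selected line, and gemcitabine was withdrawn from its medium before experiments, so the comparison of lines is between 2 cell populations. The responses of parental cells are from an earlier study by the same group. The CM03-treated parental libraries behind those tables were not analysed here, and line and study cannot be told apart in any comparison of the responses.

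The tables give a log2 fold change and an FDR (a p-value adjusted over the genes of the table) for each gene. They give no level, no value per library and no depth, so values per sample cannot be shown and levels cannot be compared between genes. A gene was called Down when its log2 fold change was under -0.5 and its FDR under 0.1, Up when it was above 0.5 with the same FDR, and strongly changed when it was 1 or more in size with an FDR under 0.05. The verbs rose and fell are kept for genes called. The 95% intervals were recovered from the FDR and are approximate. No source used here states that replicate libraries were grown as separate cultures, so the FDR measures the spread between libraries, which may be technical. Fewer cells that express a gene and less RNA per cell cannot be told apart in such data.

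A G-quadruplex is a four-stranded fold of a guanine-rich strand, in which guanines from several runs pair in stacked planar tetrads held by a central potassium ion. In promoters such folds compete with the ordinary duplex, and small molecules that bind and hold them have been studied as a way to lower transcription of oncogenes. The MYC, BCL2, PDGFA and PDGFRB promoters are textbook examples, while that of MYB is known for a different fold built on repeated GGA triplets.

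The guanine-rich stretches upstream of the genes show what the folds are built from. By RefSeq, PDGFA lies at chr7:497258-520700, PDGFRB at chr5:150113839-150155845, RET at chr10:43077069-43130351, MYB at chr6:135181308-135219172, BCL2 at chr18:63123346-63320090 and SRC at chr20:37344699-37406050. Promoter sequences from RefSeq (GRCh38.p14) matched 5 of the 7 genes. They were searched on both strands for the canonical motif, which is 4 or more runs of at least 3 G separated by loops of 1 to 7 bases of any kind. The 5 stretches that follow were chosen because each is the motif of its gene nearest to a start site or, for PDGFA with its several start sites, the one with its G runs on the coding strand and nearest to a start site. Each is written 5′ to 3′ on the G-rich strand, with runs of at least 3 G in capitals.
PDGFA (chr7:519892-519935, minus strand): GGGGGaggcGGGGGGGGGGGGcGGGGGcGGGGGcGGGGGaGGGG
PDGFRB (chr5:150155947-150155977, plus strand): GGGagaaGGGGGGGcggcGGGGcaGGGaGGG
RET (chr10:43076985-43077034, minus strand): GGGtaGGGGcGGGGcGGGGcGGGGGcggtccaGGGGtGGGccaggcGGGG
MYB (chr6:135181052-135181089, minus strand): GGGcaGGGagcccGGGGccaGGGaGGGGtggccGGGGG
BCL2 (a stretch of 28 bases within chr18:63320118-63320152, plus strand): GGGGcGGGcgcGGGaggaaGGGGGcGGG
The PDGFA stretch holds 6 runs within 44 bases, including an unbroken run longer than any in the other stretches shown. It lies on the coding strand 89 to 46 bases before the third of 4 annotated start sites, in an intron by GENCODE 44. The PDGFRB motif lies on the template strand, 132 to 102 bases before its start site, outside the gene. The RET motif has 8 runs within 50 bases on the template strand, 84 to 35 bases before the first of 2 start sites and outside the gene. The MYB motif lies on the template strand 256 to 219 bases before the start site, outside the gene. The BCL2 motif has 6 runs within 35 bases on the template strand, and the 28 bases printed hold 5 of those runs. It lies 383 to 349 bases before the start site used in the search, in a UTR or noncoding exon by GENCODE 44. That start site, at 63319769, lies inside the RefSeq span of the gene. The motif lies just upstream of the end of that span, 63320090.

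The GGA repeats known from the MYB promoter are of another kind, and the canonical search does not read them. A search for 4 or more GGA triplets in a row, added after the promoter sequences had been seen, found a repeat on the template strand 20 to 48 bases after the start site. It is written 5′ to 3′ with the GGA triplets in capitals.
MYB GGA repeats (chr6:135181327-135181355): GGAGGAGGAGGAgaaGGAGGAGGAGGAaa
Such a row of triplets was present in 281 of 35116 RefSeq promoters (0.800%), against 25.0% of promoters for the canonical motif.

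Of the 5 genes with a promoter sequence, 4 held at least 1 canonical motif between 250 bases before and 50 bases after a start site. BCL2 held none there by the start site used for it. The MYB motif counts through the part of it that lies inside this window, since its first bases lie beyond the edge, and motifs at the edge were counted in the same way over all genes. Over all genes of the promoter table this share was 27.9%. With 2000 bases before to 100 after the start, all 5 genes held a motif, beside 50.9% of all genes. The motif is common at promoters, and its match is a description of the letters only. RET held 3 motifs near its first start site and none near its second. PDGFA held 0, 1, 1 and 2 motifs near its 4 start sites, so the count depended on the start site. The BCL2 count depends on it as well, since its start site in this search lies inside the RefSeq span of the gene. Its nearest motif lies just upstream of that span. The motifs near PDGFRB, RET and MYB were on the template strand, and BCL2, MYB and PDGFA carried them on both strands in the wider window.

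**Figure D1:**
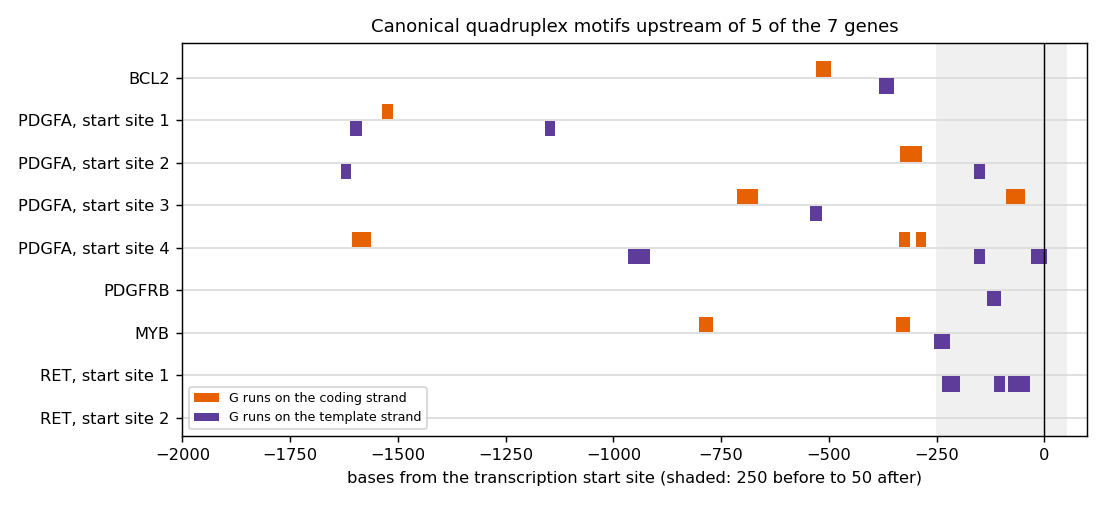
Canonical quadruplex motifs (bars) by distance in bases from each RefSeq start site (horizontal axis), 1 row per start site, coloured by the strand that carries the G runs. The 3 RET motifs lie within 250 bases of start site 1, while the 2 BCL2 motifs lie at 529 to 497 and 383 to 349 bases before the start site used. That BCL2 start site lies inside the RefSeq span of the gene.

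The tables of parental cells also give a number of putative quadruplexes (PQs) per gene, a count that did not use expression. By the study's methods it covers the promoter, the exons and the introns together. It is thus not a count of promoter quadruplexes alone, and it was not adjusted for gene length here. SRC had 56 PQs, more than 98.2% of the 13503 genes listed, followed by RET with 34, PDGFRB with 26, PDGFA with 23 and BCL2 with 21. MYC and MYB had 4 each, below the median of 5 over all genes. The 7 genes therefore spread between just below the median and the top of the distribution, although all are known for a promoter quadruplex. Among the genes with a PQ count, Down calls were more frequent in those with many PQs. Genes listed for GemMIA-R3 cells but not for parental cells have no count here and were left out of the shares. In GemMIA-R3 cells at 24 h, 39.4% of genes with over 20 PQs were Down, against 23.5% of those with 5 to 20 and 15.9% of those with fewer than 5. In parental cells at 24 h these shares were 33.6%, 18.0% and 11.9%. These class limits were set with the PQs of the 7 genes known.

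Counted over the 7 genes, the calls with CM03 were Down only at 6 h, in both lines, and went both ways at 24 h. In GemMIA-R3 cells CM03 lowered 2 of the 6 measured at 6 h and raised none, beside 7.26% Down and 5.0% Up over all genes. At 24 h 2 of 7 were Down and 1 Up in GemMIA-R3 cells, where 18.9% and 20.3% of all genes were so called. Parental cells at 6 h had 2 of 7 Down and none Up, with a background of 16.3% Down and 16.4% Up. At 24 h they had 2 of 7 Down and 2 Up, with a background of 16.8% Down and 18.5% Up. Between untreated GemMIA-R3 and untreated parental cells at 24 h, 3 of 7 were Down and 1 Up, against 15.2% and 11.7% of all genes. With so few genes, no share stands as a result about the group. The median log2 fold change of the members was -0.12 in GemMIA-R3 and -0.20 in parental cells at 6 h, and 0.63 in GemMIA-R3 and 0.34 in parental cells at 24 h, where the medians of all genes lay between 0 and 0.05. The genes called Down with CM03 were BCL2 and MYB in parental cells at 24 h, and BCL2 and PDGFA in the other 3 comparisons.

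**Figure D2:**
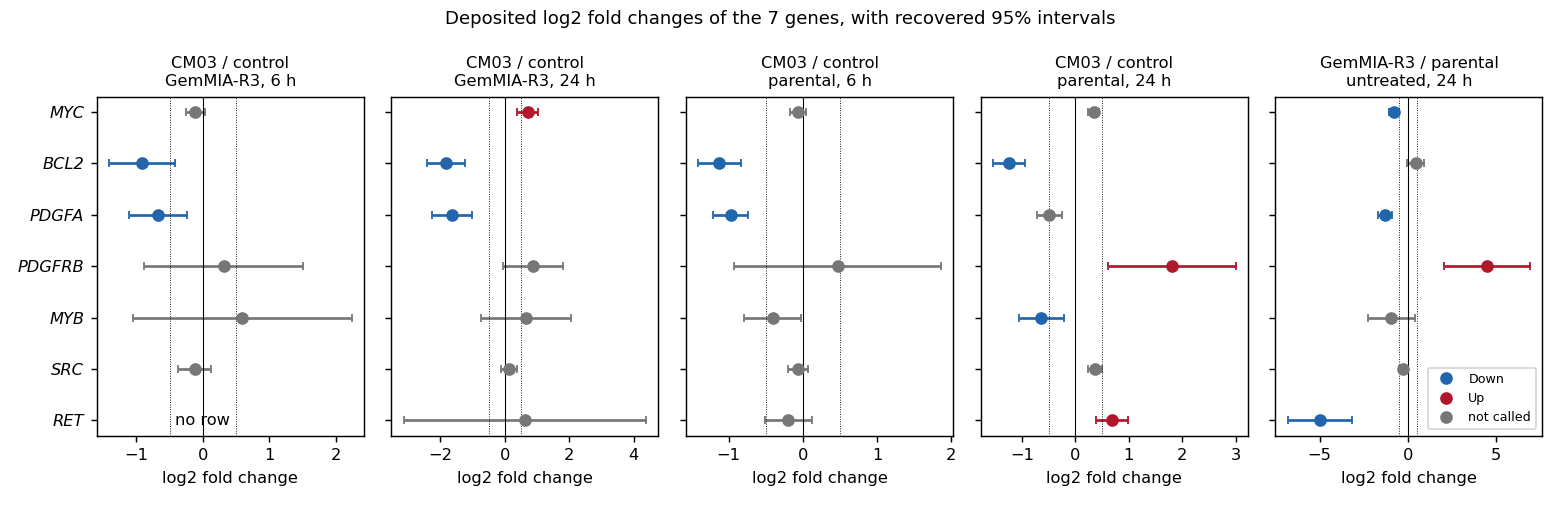
Deposited log2 fold changes (horizontal axes, scaled per panel) of the 7 genes in the 5 comparisons, with recovered 95% intervals as bars, dotted lines at -0.5 and 0.5, and colours for the call. BCL2 lay between -0.91 and -1.82 in the 4 CM03 comparisons, while PDGFRB and RET had their largest values, 4.51 and -4.99, between the untreated lines.

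PDGFA encodes the A chain of platelet-derived growth factor, a ligand that activates PDGF receptors on mesenchymal cells. With CM03 it fell 1.59-fold in GemMIA-R3 cells at 6 h (log2 fold change -0.67, 95% interval -1.11 to -0.23, FDR = 0.0162) and 3.11-fold at 24 h (-1.64, -2.25 to -1.02, FDR = 1.16e-06). In parental cells it fell 1.96-fold at 6 h (-0.97, -1.21 to -0.73, FDR = 5.62e-15). At 24 h in parental cells the value was -0.49 (-0.72 to -0.25, FDR = 0.000107), just inside the limit of -0.5 and so not called. The gene was thus lowered at both times in GemMIA-R3 cells, with the larger value at 24 h, and had its larger value at 6 h in parental cells. Untreated GemMIA-R3 cells already held less PDGFA mRNA, 2.43-fold below untreated parental cells (-1.28, -1.68 to -0.89, FDR = 2.82e-09).

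The differences between responses were tested on errors recovered from the FDR, with a normal distribution and an adjustment over all genes, and are also given with an FDR. With 3 libraries a group this is an approximation, and an exact test needs values per library. By it, PDGFA alone among the members differed between the lines in its response to CM03. The difference of the log2 fold changes at 24 h, GemMIA-R3 minus parental, was -1.15 (95% interval -1.81 to -0.49, FDR = 0.00750). Over the alternative settings this FDR ran between 3.13e-05 and 0.00838. In all, 1 of 7 members differed at 24 h and 0 of 6 at 6 h, beside 18.0% of the genes tested at 24 h and 19.5% at 6 h. At 6 h the PDGFA difference was 0.30 (-0.20 to 0.80, FDR = 0.445), an interval that includes 0 and reaches 0.80. The estimates at 6 h and 24 h had opposite signs. Between 6 h and 24 h the PDGFA response moved by -0.97 in GemMIA-R3 cells (-1.72 to -0.21, FDR = 0.0497, range over settings 0.00609 to 0.0497) and by 0.48 in parental cells (0.15 to 0.82, FDR = 0.00977).

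The rest of the PDGF list gives only PDGFB and PDGFC as measured, of 4 further ligands and receptors. PDGFB, the B chain ligand, fell in all 4 CM03 comparisons, by 0.72 and 1.04 on the log2 scale in GemMIA-R3 cells at 6 h and at 24 h and by 0.71 and 0.84 in parental cells. PDGFC, a related ligand, rose in GemMIA-R3 cells at 24 h (0.99, FDR = 4.12e-11) and in parental cells at 6 h (0.62, FDR = 8.49e-16), and was 0.88 higher in untreated GemMIA-R3 than in untreated parental cells. The A and B chains were thus lower with CM03 and the C chain higher where it was called. Of these 3 ligands, PDGFA was the one lower in untreated GemMIA-R3 cells, with PDGFB at -0.09 (FDR = 0.865).

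**Figure D3:**
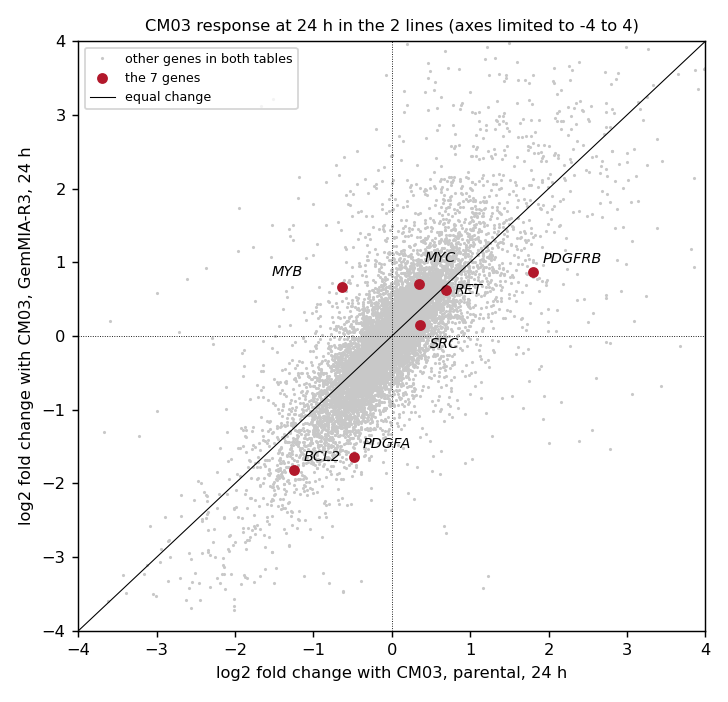
Deposited log2 fold changes with CM03 at 24 h in GemMIA-R3 cells (vertical axis) and in parental cells (horizontal axis), with the 7 genes in red, other genes of both tables in grey and a line of equal change; genes beyond -4 or 4 are not drawn. PDGFA lies at -1.64 in GemMIA-R3 cells and -0.49 in parental cells, below the line, and BCL2 at -1.82 and -1.24.

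PDGFRB encodes a PDGF receptor tyrosine kinase, usually a marker of fibroblasts and pericytes rather than of epithelial cells. Its largest value was between the untreated lines at 24 h, where it was 22.8-fold higher in GemMIA-R3 than in parental cells (log2 fold change 4.51, 95% interval 2.08 to 6.95, FDR = 0.00117), above 98.6% of genes. The interval is wide, and the tables do not show how many reads lie behind it. With CM03, PDGFRB rose 3.48-fold in parental cells at 24 h (1.80, 0.60 to 3.0, FDR = 0.00557). In parental cells at 6 h the value was 0.47 (-0.93 to 1.86, FDR = 0.574). In GemMIA-R3 cells it was 0.32 at 6 h (-0.88 to 1.51, FDR = 0.771) and 0.88 at 24 h (-0.06 to 1.81, FDR = 0.113), neither of them called. All 4 CM03 estimates were above 0 with intervals that span a wide range, and the responses of the lines at 24 h differed by -0.92 with an FDR of 0.440.

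Some fibroblast markers were higher along with PDGFRB between the untreated lines. Of 8 fibroblast markers, 4 had a row in the table of untreated GemMIA-R3 against untreated parental cells, of which 2 were Up and none Down, with a median log2 fold change of 1.25, where 11.7% of all genes were Up. COL3A1 was higher by 4.44 (FDR = 7.89e-49) and COL1A2 by 1.35 (FDR = 8.30e-55). The other measured fibroblast markers were not called, ACTA2 at 1.15 (FDR = 0.213) and COL1A1 at -1.75 (FDR = 0.264), the sign opposite to that of PDGFRB. With CM03 in parental cells at 24 h, 3 of the 5 measured were Up and 2 Down, beside 18.5% and 16.8% of all genes. COL3A1 and COL1A2 fell there by 0.99 and 1.23, while THY1 rose by 6.18, COL1A1 by 1.53 and ACTA2 by 0.56. With CM03 2 of 5 were Down at 24 h in GemMIA-R3 cells, beside 18.9% of all genes. They were COL3A1 at -1.04 and COL1A2 at -1.01, while THY1 rose by 5.63. Of the mesenchymal markers SNAI2 was 5.14 higher (FDR = 1.70e-42) and ZEB1 0.76 higher in untreated GemMIA-R3 cells, with VIM at -0.37 and FN1 at 0.59 not called. The ductal keratins KRT8 and KRT18 were lower in GemMIA-R3 by values of -2.64 and -2.42, while KRT19 was higher by 0.59. In that comparison 3 of 6 measured ductal markers were Down and 1 Up, and 2 of 4 mesenchymal markers were Up, beside 15.2% Down and 11.7% Up over all genes. Of the 4 immune markers measured there, LYZ (-2.36) and CD68 (-0.59) were Down, and CD74 (2.39) and CD14 (-2.0) were not called. PECAM1, the 1 endothelial marker of 5 with a row, was 4.12 higher, and SYP, the 1 endocrine marker of 4 with a row, was Down at -2.06 (FDR = 4.49e-12). The epithelial adhesion gene CDH1 had rows in parental cells alone, where it rose with CM03 by 2.34 at 6 h and by 3.21 at 24 h. The tables give no levels, so which markers are near 0 cannot be read from them. The part of these markers in the PDGFRB values was not tested.

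RET encodes the receptor tyrosine kinase for ligands of the GDNF family. It was 31.8-fold lower in untreated GemMIA-R3 than in untreated parental cells at 24 h (log2 fold change -4.99, 95% interval -6.82 to -3.16, FDR = 6.89e-07), below all but 1.24% of genes. In parental cells RET rose 1.61-fold with CM03 at 24 h (0.69, 0.39 to 0.98, FDR = 1.39e-05), against -0.20 at 6 h (-0.51 to 0.12, FDR = 0.276). The change between the times was 0.88 (0.45 to 1.32, FDR = 0.000207). In GemMIA-R3 cells at 24 h the interval of the response ran from -3.13 to 4.39 around 0.63 (FDR = 0.808), so neither a rise nor a fall of the size seen in parental cells was detectable there. At 6 h RET had no row in GemMIA-R3 cells.

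The ligands and co-receptors of RET were sparsely measured, with 5 of 8 in the GemMIA-R3 tables at 24 h and 2 of 8 in the parental ones. GFRA3, a co-receptor that binds artemin, rose with CM03 in GemMIA-R3 cells at 24 h (5.16, FDR = 0.000200) and in parental cells at 6 h and 24 h (3.07 and 2.72). ARTN, which encodes artemin, fell by 1.89 in parental cells at 24 h (FDR = 3.33e-18), and NRTN, which encodes neurturin, fell by 2.60 in GemMIA-R3 cells at 24 h (FDR = 0.00327). GDNF, the founding ligand, was 2.35 higher in untreated GemMIA-R3 than in untreated parental cells (FDR = 0.0405), the reverse of the direction of RET. The members of the list that were called did not share a direction.

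SRC encodes a cytoplasmic tyrosine kinase that relays signals from adhesion and growth factor receptors. Its values were small in all 5 comparisons and it was called in none. With CM03 in GemMIA-R3 cells it was -0.12 at 6 h (-0.37 to 0.13, FDR = 0.552) and 0.14 at 24 h (-0.11 to 0.39, FDR = 0.356). In parental cells it was -0.07 at 6 h (-0.20 to 0.07, FDR = 0.384) and 0.37 at 24 h (0.23 to 0.50, FDR = 3.26e-07), under the size limit though the FDR was small. Untreated GemMIA-R3 cells were -0.29 against untreated parental cells (-0.51 to -0.07, FDR = 0.0268). The intervals exclude a fall of more than 0.37 in any of the 4 CM03 comparisons, and in parental cells the change between 6 h and 24 h was 0.43 (0.24 to 0.62, FDR = 3.17e-05). SRC had the most PQs of the 7 genes, and no value of it exceeded 0.37 in size.

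Several other kinases of the SRC family were called. FRK, an epithelial kinase, was 6.11 higher in untreated GemMIA-R3 than in untreated parental cells (FDR = 2.84e-07) and fell by 0.88 with CM03 in GemMIA-R3 cells at 24 h (FDR = 0.0284). In parental cells FRK rose by 2.58 with CM03 at 6 h (FDR = 0.00605) and stood at 0.01 at 24 h. LYN fell by 0.54 in GemMIA-R3 cells at 24 h and was 0.61 higher in untreated GemMIA-R3 cells, whereas FYN rose by 2.09 in GemMIA-R3 cells at 24 h (FDR = 0.0226) and by 1.02 in parental cells at 24 h (FDR = 0.0521). Of 4 measured members of 8 in the SRC family list, 2 were Down and 1 Up with CM03 at 24 h in GemMIA-R3 cells. Over all genes 18.9% were Down and 20.3% Up there. In parental cells 1 was Up at each time, beside 16.4% of all genes at 6 h and 18.5% at 24 h. Among 6 regulators and substrates of SRC, CSK, the kinase that keeps SRC inactive, fell by 0.73 in GemMIA-R3 cells at 24 h (FDR = 1.57e-06) and by 0.56 in parental cells at 6 h (FDR = 2.26e-19). BCAR1, a scaffold that SRC phosphorylates, fell in GemMIA-R3 cells at both times, by 0.76 and 0.85, and in parental cells at 6 h, by 0.64 (FDR = 1.68e-10), with -0.04 in parental cells at 24 h. It was 1.46 higher in untreated GemMIA-R3 cells.

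MYC encodes the transcription factor that drives ribosome production, metabolism and the cell cycle. It was not called Down in any of the 4 CM03 comparisons. The value was -0.12 in GemMIA-R3 cells at 6 h (-0.26 to 0.03, FDR = 0.268) and -0.07 in parental cells at 6 h (-0.17 to 0.04, FDR = 0.270). At 24 h MYC rose 1.63-fold in GemMIA-R3 cells (0.71, 0.37 to 1.04, FDR = 0.000144), higher than 78.8% of genes, and was 0.34 in parental cells (0.24 to 0.45, FDR = 1.05e-09), short of the size limit. MYC was 1.70-fold lower in untreated GemMIA-R3 than in untreated parental cells (-0.77, -1.05 to -0.48, FDR = 1.29e-06). The response moved up between the times in both lines. It moved by 0.82 in GemMIA-R3 cells (0.46 to 1.19, FDR = 0.000152, range over settings 0.000152 to 0.00276) and by 0.41 in parental cells (0.26 to 0.56, FDR = 4.85e-07). The difference between lines at 24 h was 0.36 (0.01 to 0.72, FDR = 0.145), or an FDR of 0.00215 with a t distribution of 4 degrees of freedom in the recovery of the errors.

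Over both tests of time, 2 of 6 members changed between 6 h and 24 h in GemMIA-R3 cells, MYC and PDGFA, beside 24.7% of the genes tested. In parental cells 4 of 7 changed, MYC, SRC, PDGFA and RET, beside 55.1% of genes. Whether the parental comparisons at 6 h and 24 h share control libraries is not stated in the sources used here. The share of parental genes changed is so high that a member among them is an ordinary result. BCL2 had -0.91 in GemMIA-R3 cells (-1.68 to -0.13, FDR = 0.0793) and -0.12 in parental cells (FDR = 0.659), short of the threshold in both.

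Several partners of MYC changed with CM03. MXD1, a partner of MAX that opposes MYC at the same sites, rose with CM03 in all 4 comparisons, by 1.20 and 1.53 in GemMIA-R3 cells at 6 h and at 24 h and by 1.93 and 0.60 in parental cells. MXD3 rose in 3 of them, with -0.04 in parental cells at 24 h. MXD4 fell in parental cells by 0.70 and 0.61 and stood at -0.02 and 0.03 in GemMIA-R3 cells, where the untreated cells already stood at -1.78 against untreated parental cells. MYCL, a paralog of MYC with rows in the GemMIA-R3 tables alone, rose by 1.53 with CM03 at 24 h (FDR = 0.00529) and was -1.27 against untreated parental cells. At 6 h 1 of 10 measured network genes was Down and 2 Up in GemMIA-R3 cells, beside 7.26% and 5.0% of all genes, and 6 of 9 were Down and 2 Up in parental cells, beside 16.3% and 16.4%. At 24 h 1 was Down and 3 Up in GemMIA-R3 cells, beside 18.9% and 20.3% of all genes, and 1 was Down and 1 Up in parental cells, beside 16.8% and 18.5%. The differences between the lines in these counts were not tested.

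Among 22 measured of 24 target genes of MYC, 5 were Down and none Up in GemMIA-R3 cells at 24 h, with a median of -0.31, beside 18.9% Down, 20.3% Up and a median of 0.05 over all genes. The count Down was thus near the background. BOP1, which acts in ribosome assembly, fell at 24 h in GemMIA-R3 cells (-2.60, FDR = 1.39e-101) and in parental cells (-1.90, FDR = 1.09e-104). CAD, which starts pyrimidine synthesis, and SRM, which makes spermidine, fell by 0.95 and 0.89 in GemMIA-R3 cells at 24 h. CDC25A, a cell cycle phosphatase, rose by 0.58 in GemMIA-R3 cells and by 1.29 in parental cells at 6 h. In parental cells at 24 h 1 target was Down and 1 Up, beside 16.8% and 18.5% of all genes. Of 8 proteins known to bind the MYC promoter element, 2 were Down and none Up at 24 h in GemMIA-R3 cells, beside 18.9% Down, and likewise in parental cells, beside 16.8%. CNBP, a nucleic acid chaperone of that element, fell by 1.23 in GemMIA-R3 cells at 24 h, and by 0.56 and 0.76 in parental cells at 6 h and 24 h. HNRNPK, which binds the opposite strand of the element, fell by 0.58 in GemMIA-R3 cells and by 0.60 in parental cells at 24 h. SP1, a factor that binds GC-rich DNA, fell by 0.54 in parental cells at 6 h. DHX36, a helicase that unwinds quadruplexes, stood at 0.44 in GemMIA-R3 cells and 0.34 in parental cells at 24 h, neither called.

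MYB encodes a transcription factor best known in blood progenitors. It fell 1.56-fold with CM03 in parental cells at 24 h (log2 fold change -0.64, 95% interval -1.06 to -0.22, FDR = 0.00520), and had -0.41 at 6 h (-0.79 to -0.02, FDR = 0.0578), under the size limit. In GemMIA-R3 cells it stood at 0.60 at 6 h (-1.05 to 2.24, FDR = 0.675) and 0.66 at 24 h (-0.73 to 2.05, FDR = 0.452). These estimates had the opposite sign to the parental ones, but their intervals hold changes in either direction and the difference of the lines at 24 h, 1.30, had an interval of -0.15 to 2.76 (FDR = 0.220). Untreated GemMIA-R3 cells stood at -0.94 (-2.26 to 0.38, FDR = 0.284). MYBL2, the related factor of dividing cells, fell with CM03 at 24 h by 1.27 in GemMIA-R3 cells (FDR = 4.16e-41) and by 0.97 in parental cells (FDR = 9.45e-65), while MYBL1 rose by 0.51 in GemMIA-R3 cells at 24 h (FDR = 4.88e-07).

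BCL2 encodes the founding protein of the family that guards the mitochondrial outer membrane against apoptosis. It was the only member called Down in all 4 CM03 comparisons. It fell 1.88-fold in GemMIA-R3 cells at 6 h (log2 fold change -0.91, 95% interval -1.41 to -0.41, FDR = 0.00280) and 3.53-fold at 24 h (-1.82, -2.41 to -1.22, FDR = 1.97e-08). In parental cells it fell 2.18-fold at 6 h (-1.12, -1.41 to -0.84, FDR = 7.02e-14) and 2.37-fold at 24 h (-1.24, -1.54 to -0.94, FDR = 2.85e-15). In GemMIA-R3 cells at 24 h only 2.64% of genes had a lower value, and in parental cells at 24 h 4.09% had. The estimates of the lines at 24 h differed by -0.58 (-1.24 to 0.09, FDR = 0.242) with the intervals of the lines overlapping, and at 6 h by 0.21 (-0.36 to 0.79). With the t distribution, which by construction gives smaller errors to very small p-values, the 24 h difference had an FDR of 2.03e-06. Untreated GemMIA-R3 cells had 0.44 (-0.05 to 0.93, FDR = 0.162).

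No anti-apoptotic relative of BCL2 was called Down with CM03, of 3 measured in GemMIA-R3 and 4 in parental cells. Between 7.26% and 18.9% of all genes were Down in these comparisons, so none among so few genes is an ordinary count. MCL1 rose in all 4 CM03 comparisons, by 0.69 and 1.17 in GemMIA-R3 cells at 6 h and at 24 h and by 1.20 and 0.54 in parental cells. BCL2L1, which encodes BCL-XL, rose by 0.63 in parental cells at 24 h and stood at -0.28 in GemMIA-R3 cells at 24 h (FDR = 0.0716). It was 1.09 lower in untreated GemMIA-R3 cells on the log2 scale. BCL2A1 had rows in parental cells alone, where it rose by 4.14 at 6 h (FDR = 6.70e-05) and stood at 0 at 24 h. Of the pro-apoptotic genes, BAX, an effector of the outer membrane, fell by 1.40 in GemMIA-R3 cells (FDR = 5.61e-17) and by 0.87 in parental cells (FDR = 2.57e-70) at 24 h. BIK, a sensor of the BH3-only class, rose by 1.72 in GemMIA-R3 cells and by 1.17 in parental cells at 24 h. PMAIP1, which encodes NOXA, did not pass the limits with CM03 but was 4.88 higher in untreated GemMIA-R3 than in untreated parental cells (FDR = 2.78e-32). BMF, another BH3-only gene, fell by 0.50 in parental cells at 24 h (FDR = 0.0664) and was -2.24 in untreated GemMIA-R3 against untreated parental cells. At 24 h 3 of 10 measured pro-apoptotic genes were Down and 2 Up in GemMIA-R3 cells, beside 18.9% and 20.3% of all genes. In parental cells 4 of 10 were Down and 1 Up, beside 16.8% and 18.5%, and the difference between the lines in these counts was not tested.

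Other genes with a studied promoter quadruplex, set beside the 7, show how these values compare. Of 12 listed, 8 had a row in GemMIA-R3 cells, of which 3 were Down at 24 h and none Up, beside 18.9% and 20.3% of all genes. In parental cells 10 had one, with 4 Down and 1 Up at 24 h, beside 16.8% and 18.5%. TERT, the catalytic subunit of telomerase, fell in all 4 CM03 comparisons, with log2 fold changes of -1.38 and -4.21 in GemMIA-R3 cells at 6 h and at 24 h and of -1.66 and -2.47 in parental cells. VEGFA, an angiogenic growth factor, fell by 1.26 in GemMIA-R3 cells at 24 h and by 0.66 and 0.50 in parental cells. In GemMIA-R3 cells at 24 h TERT thus lay below, and VEGFA above, the -1.64 of PDGFA and the -1.82 of BCL2. KIT, a receptor kinase, rose by 2.45 and 3.01 in parental cells at 6 h and at 24 h. STAT3, a transcription factor of cytokine signalling, was -0.88 in untreated GemMIA-R3 against untreated parental cells (FDR = 2.68e-15).

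**Figure D4:**
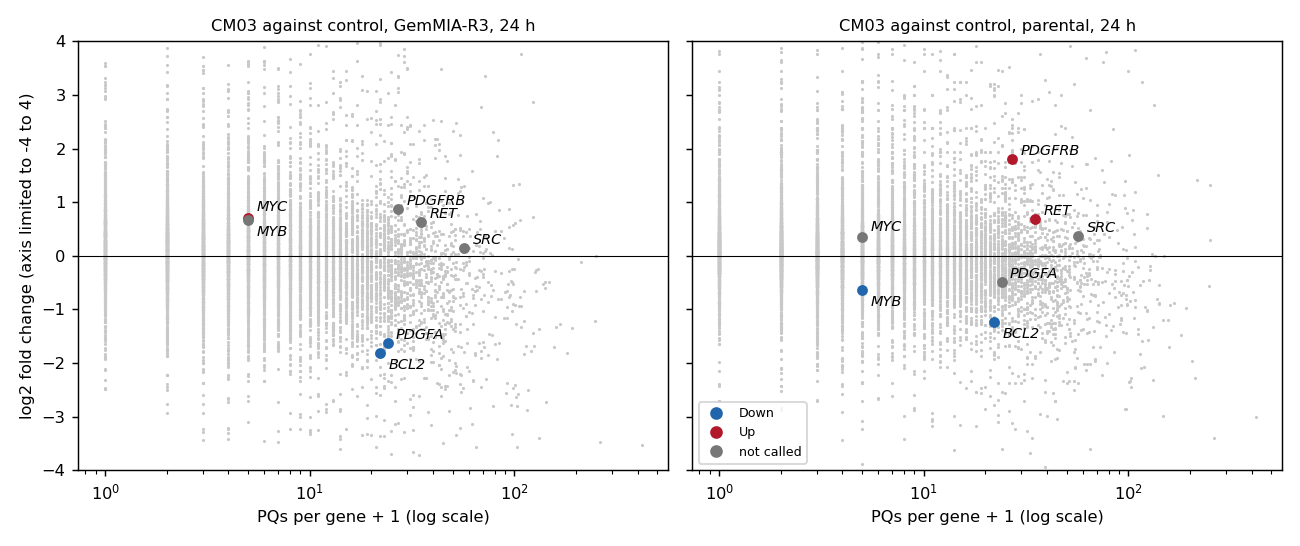
Deposited log2 fold changes with CM03 at 24 h (vertical axes, limited to -4 to 4) against PQs per gene plus 1 (horizontal axes, log scale). GemMIA-R3 cells are on the left and parental cells on the right. The 7 genes are coloured by call, over the genes with a PQ count in grey. SRC, with 56 PQs, stands at 0.14 and 0.37, while BCL2, with 21, stands at -1.82 and -1.24.

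Set by their PQs, the members with over 20 were called Down in 2 of 5 cases in GemMIA-R3 cells at 24 h (BCL2 and PDGFA) and in 1 of 5 in parental cells at 24 h, where 2 were Up (PDGFRB and RET). Over all genes of that class 39.4% were Down and 14.0% Up in GemMIA-R3 cells, and 33.6% Down and 17.5% Up in parental cells. BCL2 and PDGFA, with 21 and 23 PQs, and PDGFRB, with 26, had close counts and estimates of opposite sign at 24 h in both lines. Of these estimates, that of PDGFRB was not called in GemMIA-R3 cells, and that of PDGFA was not called in parental cells.

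Adding the response of GemMIA-R3 cells to the difference of the untreated lines places CM03-treated GemMIA-R3 cells on the scale of untreated parental cells at 24 h. Both values use the same GemMIA-R3 controls, which cancel in the sum. The sum has no test, since its error cannot be had without values per library. MYC came to -0.06, close to the untreated parental level, against -0.77 in untreated GemMIA-R3 cells. PDGFA came to -2.92, a level 7.56-fold below untreated parental cells, against -1.28 without CM03. BCL2 came to -1.38, or 2.60-fold lower, against 0.44. PDGFRB came to 5.39 and RET to -4.36, while MYB and SRC stood at -0.28 and -0.15. None of these genes was called in its response to CM03 in GemMIA-R3 cells at 24 h. The interval of the RET response ran from -3.13 to 4.39. For PDGFA the 2 differences had the same sign, and for MYC and BCL2 opposite signs. Noise in the shared controls enters the 2 differences in opposite directions and so favours opposite signs. The difference of the untreated lines was not called for BCL2 (FDR = 0.162).

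**Figure D5:**
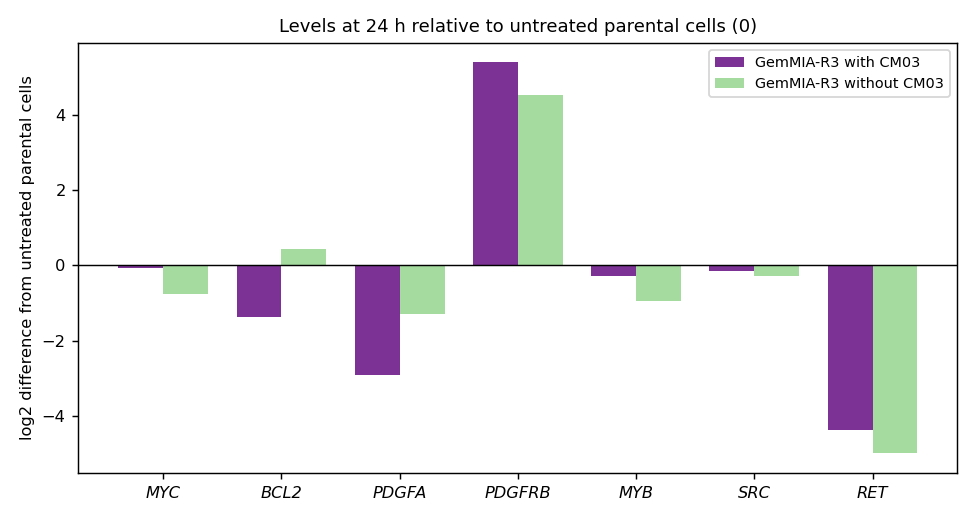
Log2 difference from untreated parental cells at 24 h (vertical axis, 0 the parental control) for GemMIA-R3 cells with CM03 and without it, a bar each per gene. PDGFA stands at -2.92 with CM03 and -1.28 without it, and MYC at -0.06 with CM03 and -0.77 without it; the bars have no error.

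For each of the 6 genes with a row in all 5 tables, the genes with the nearest 5 log2 fold changes were found by root mean square distance on the log2 scale. SRC, with its small values, had the nearest neighbours, TOP3B at 0.0563, RGAG4 at 0.0670 and MPP6 at 0.0756. MYC was nearest to BPHL at 0.110, ZNF782 at 0.111 and ACP6 at 0.115. For BCL2 they were NCKIPSD at 0.131, KCTD15 at 0.161 and MGRN1 at 0.170. PDGFA had C10orf35 at 0.164, MANSC1 at 0.205 and DNAJC5 at 0.243. MYB had SAMD14 at 0.174, ABHD4 at 0.227 and LDHD at 0.227, and PDGFRB, with its wide values, had PALLD at 0.391, PAX8 at 0.484 and RASAL2 at 0.50. Members were left out of the search, and some of the 5 tables share control libraries, so the likeness is a description.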

How the data were processed

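Total RNA was extracted from GemMIA-R3 and parental MIA PaCa-2 cells, and the sequenced libraries were made from it with an mRNA library kit. By the submitters' processing notes, reads were demultiplexed with bcl2fastq, trimmed with Trimmomatic 0.36 and aligned to hg38 with STAR 2.5b. By the study's methods, libraries carried unique molecular identifiers, duplicates were marked with JE-Suite, reads were counted with FeatureCounts and groups were compared with SARTools, whose statistical route was not stated. How the earlier study made the parental values was not given in the sources used here.

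The log2 fold changes were deposited by the authors, treated over control or GemMIA-R3 over parental. The FDR values deposited by the authors are p-values adjusted over each table. Columns of 0 and 1, deposited by the authors as other marks, hold their subsets of called genes, and the parental tables give PQs, a count per gene deposited by the authors. These values are the authors' own comparisons. No per-library values were in the tables used, so depth is unknown and no interval from counts was possible. All columns were mapped, with 0 unmapped.

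For each gene the largest p-value that its FDR allows under the Benjamini-Hochberg procedure was taken as unadjusted. The standard error was set so that the log2 fold change lay at the normal quantile of this p, which assumes a test close to normal, and intervals are 95%. Responses of the lines, and of the times, were compared with these errors by a normal test, two-sided, and the Benjamini-Hochberg procedure was run over all genes shared by the tables, at an FDR of 0.05. This is an approximation for groups of 3 libraries. No exact test was possible on the tables. Left out were genes whose FDR was printed as 0 or whose log2 fold change was smaller than 0.01. The code was tested on simulated data. The tools were matplotlib 3.10.9, scipy 1.17.1, pandas 2.3.3, numpy 2.4.6 and Python 3.11.15.

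The 7 genes, the lists and the tests were chosen with earlier results of these data known. Named genes were all 7 members. Of every other list, those called at least once were named, up to the 4 with the largest called values. Named outside this rule were ACTA2, of the fibroblast list, and DHX36, which was called in no comparison. For each member with a value in all 5 tables, the 3 nearest genes were named. Promoter sequences are from RefSeq (GRCh38.p14), and all 35116 were identical to hg38. No promoter sequence of MYC or SRC was used here. Gene positions around motifs are from GENCODE 44.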

Additional observations from a re-analysis of the deposited data

Results flagged for a closer look

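The response of PDGFA to CM03 at 24 h differed between the lines by -1.15 on the log2 scale, GemMIA-R3 minus parental (95% interval -1.81 to -0.49, FDR = 0.00750 over all genes by a normal approximation). It was singled out because the difference between the lines was itself tested and passed the threshold. At 24 h 18.0% of the genes tested passed it, and line and study cannot be told apart in this comparison. The log2 fold change was -1.64 in GemMIA-R3 cells and -0.49 in parental cells.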

How the results depend on the processing

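Of the alternative values for counts of members and differences, 56 kept their call or count within the limit used and 7 moved. The limit was relative to the main count, so small moves were counted as kept. An example is the move from 2 to 3 members Down in parental cells, at 6 h and at 24 h, with an FDR under 0.1 at any size. With the strong threshold (1 or more in size, FDR under 0.05) the members Down at 6 h became 0 in GemMIA-R3 and 1 in parental cells, those Up at 24 h became 0 in GemMIA-R3 and 1 in parental cells, and those Down at 24 h in parental cells became 1. With an FDR under 0.1 at any size, 4 members were Up in parental cells at 24 h. With a t distribution of 4 degrees of freedom in place of the normal, 3 members differed between the lines at 24 h, PDGFA, MYC (FDR = 0.00215) and BCL2 (FDR = 2.03e-06), and BCL2 differed between the times in GemMIA-R3 cells (FDR = 0.00347) and in parental cells (FDR = 1.59e-09). By its construction that setting gives smaller errors to very small p-values. For single members, 81 further values kept their call and 4 passed the threshold under an alternative. No paired analysis was possible because the tables hold no values per library, and leaving out each replicate could not be run for the same reason. Depth is unknown, so wide intervals such as those of RET and PDGFRB cannot be set against read numbers.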
